A study of Homo sapiens with 12 samples.

Results

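The samples described here compare HCT-116 cells given heteronemin together with tetrac against cells given tetrac alone, so that the ratio shows what heteronemin did on a background of tetrac. They are 6 of the 12 samples of the series, 3 in the Heteronemin+Tetrac group and 3 in the Tetrac group, chosen by their labelled treatment. HCT-116 is an established epithelial line from a human colorectal carcinoma. Heteronemin is a natural product of marine sponges, of the sesterterpenoid class. Tetrac, short for tetraiodothyroacetic acid, is a deaminated analogue of thyroxine. All cells were treated for 24 h, and the sources used here state no dose. The other groups were Control and Heteronemin, also with 3 samples each. Whether the 3 samples of a group were separate cultures is not in the labels, so the authors' p-values may reflect technical spread alone.

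RNA was counted with the NanoString nCounter PanCancer Progression panel, in which fluorescent barcodes on hybridised probes are counted without amplification. The panel held 770 genes, 740 endogenous and 30 housekeeping. The files give the authors' mean of normalized counts for each group, and values per sample were not analysed here. A ratio of both compounds over tetrac therefore has no test and no SD of its own. Levels near the bottom of the scale are set by a floor of 33, the lowest mean in any group. The results lead with the 354 genes (46.0% of the panel) whose mean over the tetrac and combination columns was 100 or more, none of them at the floor in either group. Just outside that line lay PDGFA, at a mean of 99.4 and a log2 ratio of 0.49, and HOXB13, at 99.8 and -0.54. Just inside lay CDK14, at 101 and -0.58, and ALOX5, at 104 and 0.04.

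An outer limit for the error can be had from the authors' p-values of each treatment against control. Of 223 genes whose control mean was the floor and whose tetrac mean exceeded it, 212 had a p-value of 0.42 in the authors' deposited table. With constant control values and a single treated sample above the floor, a comparison with unpooled variances returns 0.423 whatever that sample's level. For heteronemin, 127 of 213 such genes had a p-value from 0.18 to 0.2 in the authors' deposited table. The smallest value such a comparison can return with 2 of 3 samples above the floor is 0.184. On the assumption that all the p-values came from comparisons of this kind on log2 values, each p limits the standard error of its ratio. The limits of the 2 treated groups were combined into the largest standard error that the ratio of both compounds over tetrac can have, with each p at the top of its rounding interval. It is given below as "SE at most". A gene is said to pass the error limit where its difference exceeded 4.303 times that value on the log2 scale and also on the linear scale. The multiple is the two-sided critical value at 0.05 with 2 degrees of freedom. The limit is not adjusted for the number of genes and is no test of the ratio.

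Some background helps to read the genes. Interleukin-8, encoded by CXCL8, is a chemokine that draws neutrophils and that tumour cells release under stress. AP-1 is a transcription factor made of JUN and FOS family proteins, induced within hours by growth factors and by stress, and CXCL8 is a well known target of it. BMP4 is a secreted ligand whose receptors act through SMAD proteins on the ID genes, inhibitors of differentiation that are commonly used as a readout of BMP signalling. JAG1 is a ligand of Notch receptors. Tetrac is known to block the site for thyroid hormone on a cell surface integrin.

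The sequences upstream of 4 genes are shown because these carried the largest ratios in each direction: CXCL8, JUN and LAMB3 were the highest and BMP4 the lowest. Each run is the 250 bases before the gene's start, 5′ to 3′ on the gene's strand, from RefSeq on GRCh38.p14. Capitals mark matches on either strand to the AP-1 motif TGANTCA or to its longer relative TGACNTCA, where N is any base. Both motifs begin with TGA and end with TCA, and no run can match both from the same start. CXCL8 lies at chr4:73740319-73740568 on the plus strand, JUN at chr1:58784048-58784297 on the minus strand, LAMB3 at chr1:209652426-209652675 on the minus strand and BMP4 at chr14:53955051-53955300 on the minus strand.
CXCL8: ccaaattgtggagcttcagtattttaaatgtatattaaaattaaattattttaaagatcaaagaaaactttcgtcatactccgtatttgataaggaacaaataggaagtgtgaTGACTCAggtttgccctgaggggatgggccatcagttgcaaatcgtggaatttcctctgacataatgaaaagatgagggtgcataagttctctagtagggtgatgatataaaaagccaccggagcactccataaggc
JUN: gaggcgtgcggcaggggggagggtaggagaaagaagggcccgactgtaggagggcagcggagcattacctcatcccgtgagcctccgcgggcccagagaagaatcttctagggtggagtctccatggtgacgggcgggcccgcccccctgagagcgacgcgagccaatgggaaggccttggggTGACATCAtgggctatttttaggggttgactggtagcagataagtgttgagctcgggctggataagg
LAMB3: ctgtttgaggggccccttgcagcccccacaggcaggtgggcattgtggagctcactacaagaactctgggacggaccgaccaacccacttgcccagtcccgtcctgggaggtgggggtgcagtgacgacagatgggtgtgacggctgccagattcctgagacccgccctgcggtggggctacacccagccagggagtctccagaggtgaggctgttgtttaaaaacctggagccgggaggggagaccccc
BMP4: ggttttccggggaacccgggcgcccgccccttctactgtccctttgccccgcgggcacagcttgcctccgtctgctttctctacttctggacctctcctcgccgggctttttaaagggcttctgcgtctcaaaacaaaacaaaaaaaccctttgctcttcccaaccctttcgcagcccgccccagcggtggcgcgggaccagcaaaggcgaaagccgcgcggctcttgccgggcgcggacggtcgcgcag
The match in CXCL8 starts 137 bases before the gene's start and the match in JUN 67 bases before it. LAMB3 and BMP4 hold neither run of letters in this window. Of all 27305 promoters in the RefSeq table, 6.60% hold TGANTCA and 7.09% hold TGACNTCA in the same window. Among the leading genes, 277 had an entry, of which 4.69% and 7.58% hold them. Of the genes 1.5-fold or more higher with heteronemin, 17 had an entry: CXCL8 and F3 hold TGANTCA, and JUN and EPHA2 hold TGACNTCA. Of the genes 1.5-fold or more lower, 10 had an entry, and JCAD alone of these holds TGANTCA. The matches are a description of letters, not of sites in use.

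Adding heteronemin to tetrac left most of the panel close to its level with tetrac alone and shifted a small set of genes. Of the 354 leading genes, 26 were 1.5-fold or more higher (7.34%) and 11 were 1.5-fold or more lower (3.11%). At 2-fold the counts were 13 and 3. Of the 26 higher genes, 8 had a tetrac mean under 100 and reached the leading level through the combination alone; CXCL8, LAMB3, HMOX1, NRP1, ANGPTL4, ADM2 and COL1A1 are among them. Of the 11 lower genes, ITGB8 and KIAA1462 reached it through tetrac alone. Counts over members of a gene list carry the same limit and are given as a description, beside the shares over all leading genes. The median log2 ratio was -0.04, the middle 50% of genes lay between -0.24 and 0.14. Over all 713 genes above the floor in either group, 37 were 1.5-fold or more higher (5.19%) and 13 lower (1.82%). The error limit was passed by 10 genes (2.82%), 9 higher and 1 lower. Beside this, the authors' deposited table of the combination against control, which shares the combination samples, had p under 0.05 for 39 leading genes that were higher (11%) and 89 that were lower (25.1%). Of the 26 higher genes 24 were among the former, without COL1A1 and EPHA2, and of the 11 lower genes 10 were among the latter, without ITGB8. Of the 37 leading genes that were 1.5-fold apart, ANGPTL4 was the only one with p under 0.05 after tetrac alone in the authors' deposited table. Such p-values were rare after tetrac among all leading genes, so their scarcity is not particular to the 37. Outside the 37 they were those of AGGF1, DPYSL3, EPHA1, LAMA5, MAPK3, OCLN, PLAU and SLC2A1.

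**Figure D1:**
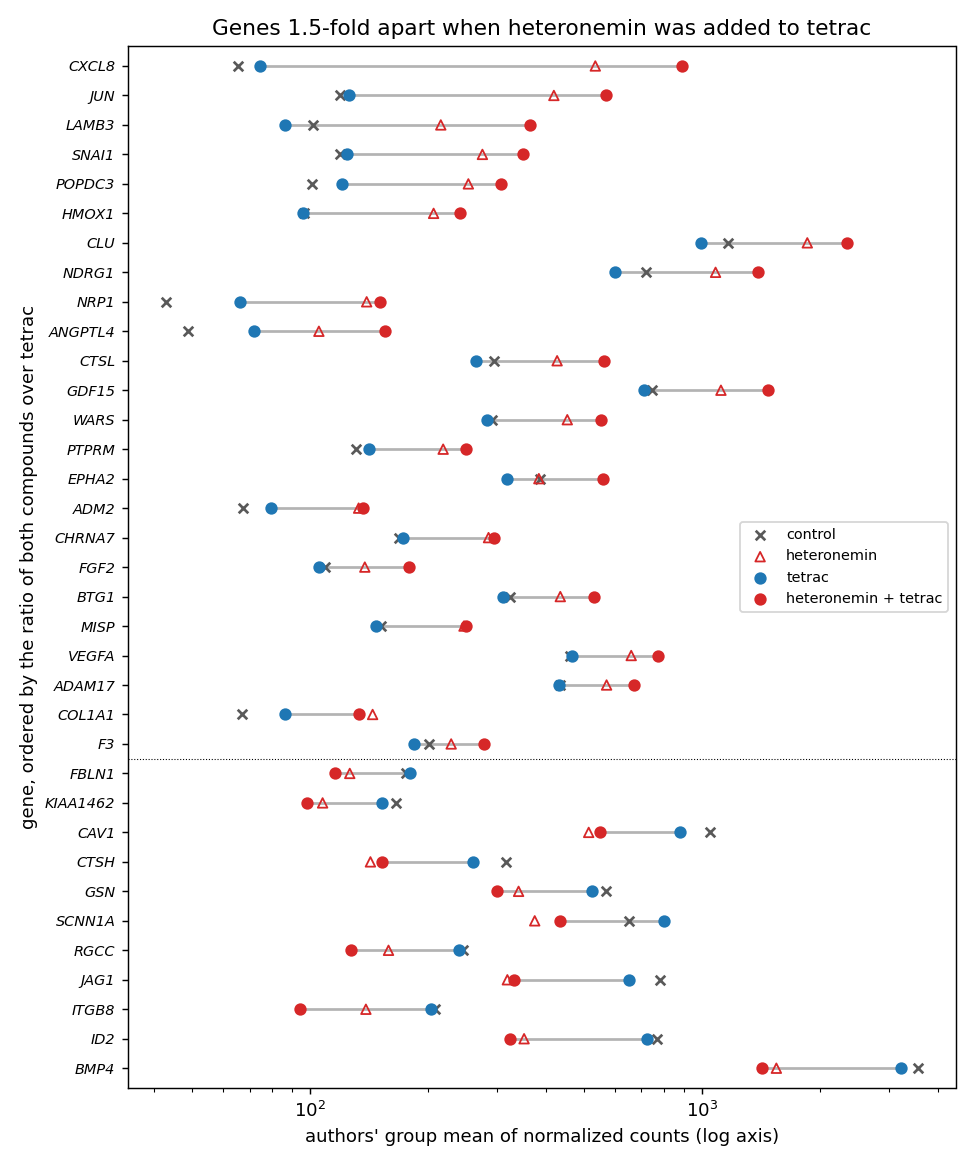
The authors' group means of normalized counts (log axis) for 35 of the 37 leading genes that were 1.5-fold or more apart, ordered by the ratio of both compounds over tetrac. Filled points joined by a line are tetrac and the combination; crosses are control and open triangles heteronemin alone, and each point is a group mean with no error bar. CXCL8 spans the widest gap, from 74.4 to 892, and BMP4 has the lowest ratio, with 3219 for tetrac and 1423 for both.

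The CXCL8 mean was 74.4 with tetrac and 892 with both compounds, an 11.99-fold difference (log2 ratio 3.58, SE at most 0.69). Without tetrac the authors' means were 65.5 in control and 535 with heteronemin. Tetrac alone thus sat near control, and both groups with heteronemin sat far above both groups without it. The JUN mean was 126 with tetrac and 569 with both, 4.52-fold higher (log2 ratio 2.18, SE at most 0.43), against 119 in control and 419 with heteronemin. CXCL8 and JUN both passed the error limit. They had the largest and the second largest ratio of all leading genes.

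Of the AP-1 and stress response list, 5 of 8 measured genes had a mean of 100 or more. At 1.5-fold 3 of the 5 were higher, JUN, HMOX1 and GDF15, and 0 lower, where 7.34% of all leading genes were higher. The median log2 ratio of the 5 was 1.06, against -0.04 for all leading genes. The 1 member below 0 had a log2 ratio of -0.12. HMOX1 reached the level through the combination alone. HMOX1, the haem oxygenase that breaks down haem under oxidative stress, went from the authors' mean of 95.6 with tetrac to 242 with both, 2.53-fold (log2 ratio 1.34, SE at most 0.40). GDF15, a secreted stress cytokine, went from 712 to 1479, 2.08-fold (SE at most 0.33). Neither passed the error limit. HSPB1, a small heat shock protein, had a log2 ratio of 0.16. The list was chosen with earlier results of these data known, so its count is no independent sign of a direction. WARS, the cytoplasmic tryptophanyl-tRNA synthetase, stood outside the lists and was 1.95-fold higher, from the authors' mean of 283 to 552.

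Of 16 measured inflammatory genes, only CXCL8, IL18 and NFKB1 reached a mean of 100. IL18, a cytokine of the interleukin-1 family, had a log2 ratio of 0.20 and NFKB1, a subunit of the NF-kappa B factor, one of -0.16. CXCL8 therefore stood alone in its list at 1.5-fold, where 7.34% of all leading genes were higher.

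Among genes of the basement membrane, LAMB3 differed most. It encodes the beta3 chain of laminin-332, the laminin that anchors epithelium. Its mean was 86.2 with tetrac and 363 with both compounds, 4.21-fold higher (log2 ratio 2.08, SE at most 0.43), and it passed the error limit. Without tetrac the authors' means were 102 in control and 215.5 with heteronemin, so the combination stood above each of the other groups. Of the list of laminin, collagen VII and hemidesmosome genes, 8 of 13 measured reached a mean of 100, at a median log2 ratio of 0.18. Of these 8, 2 were 1.5-fold or more higher and 0 lower, where 7.34% and 3.11% of all leading genes were. LAMA5, an alpha chain of other laminins, was 1.23-fold higher, from 267 to 329. Small as it was, that difference passed the error limit, with an SE of at most 0.06. ITGB4, the integrin chain of the hemidesmosome that binds laminin-332, went the other way, from the authors' mean of 1115 to 776 (log2 ratio -0.52, SE at most 0.26). The alpha3 chain of laminin-332, LAMA3, lay below the leading level, with means of 57.7 and 114, a log2 ratio of 0.98 and an SE of at most 0.42.

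Of 17 measured integrins, 7 reached a mean of 100, at a median log2 ratio of 0.08. At 1.5-fold 0 of the 7 were higher and 1 lower, beside 7.34% and 3.11% of all leading genes. ITGB8, a partner in an integrin that activates latent TGF-beta, went from the authors' mean of 203 with tetrac to 94.4 with both, 2.15-fold lower (log2 ratio -1.11, SE at most 0.44). It did not pass the error limit. Its mean with heteronemin alone was 139, above that of the combination. ITGA2, a collagen receptor chain, had a log2 ratio of -0.45 and ITGB1, the common beta chain, of 0.40. ITGB3, a chain of the integrin that tetrac is known to bind, had means of 44.4 with tetrac and 44.5 with both, close to the floor. Of 13 measured collagens, 4 reached the leading level. COL1A1 was 1.55-fold higher, from 86.0 to 133, but with an SE of at most 0.68 on the log2 scale the ratio of 0.63 was smaller than its possible error. COL18A1, the source of endostatin, had a log2 ratio of -0.52, and COL6A1 and COL6A2 had -0.35 and 0.07.

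Matrix proteases and their inhibitors stood on both sides, with a median log2 ratio of -0.10. Of 13 at the leading level, 3 were 1.5-fold or more higher and 1 lower, where 7.34% and 3.11% of all leading genes were. CTSL, a lysosomal cysteine protease that is also secreted, went from the authors' mean of 265 to 563, 2.12-fold (log2 ratio 1.08, SE at most 0.30). ADAM17, the sheddase that releases EGF receptor ligands and tumour necrosis factor, went from 431 to 672, 1.56-fold (SE at most 0.17). CTSH, another lysosomal protease, went from 260.4 to 152, a log2 ratio of -0.77 (SE at most 0.34). The cathepsins L and H thus stood on opposite sides of tetrac alone. CTSL, ADAM17 and CTSH did not pass the error limit.

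Angiogenic genes had 10 of 24 measured members at the leading level, and 4 of the 10 were 1.5-fold or more higher and 0 lower, at a median log2 ratio of 0.32. Over all leading genes 7.34% were higher and the median was -0.04. Of the 4, NRP1 and ANGPTL4 had tetrac means under 100 and reached the level through the combination alone. NRP1, a co-receptor for VEGF and semaphorins, went from 66.1 with tetrac to 150.3 with both, 2.27-fold. Its possible error was wide, with an SE of at most 0.59 on the log2 scale, and the control mean was 42.8, near the floor. ANGPTL4, a secreted inhibitor of lipoprotein lipase, went from the authors' mean of 71.8 to 155, 2.16-fold (SE at most 0.35). Here tetrac alone already stood above control, at 48.6. VEGFA, the main angiogenic growth factor, went from 466 to 771, 1.65-fold (log2 ratio 0.73, SE at most 0.22). FGF2, a fibroblast growth factor, went from 105 to 179, 1.70-fold.

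The hypoxia and glucose list was split between its members. Of 15 leading genes, 3 were 1.5-fold or more higher and 0 lower, beside 7.34% and 3.11% of all leading genes. Yet the list's median log2 ratio was -0.04, the same as for all leading genes. NDRG1, a gene induced by hypoxia and other stress, went from the authors' mean of 602 to 1388, 2.31-fold (log2 ratio 1.21, SE at most 0.32). The other 2 were ANGPTL4 and VEGFA. HIF1A, the hypoxia-induced factor itself, had a log2 ratio of -0.04, and LDHA, lactate dehydrogenase A, of -0.45 (SE at most 0.19).

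BMP4 had the lowest ratio of the leading genes. Its mean was 3219 with tetrac and 1423 with both compounds, 2.26-fold lower (log2 ratio -1.18, SE at most 0.30). Its means without tetrac were 3561 in control and 1550 with heteronemin, so the groups with heteronemin lay together and well below the others. ID2 went from 723 to 323, 2.24-fold lower (SE at most 0.27), and ID1 from 3239 to 2196, 1.48-fold lower (SE at most 0.20). Both are inhibitors of differentiation that respond to BMP signals. The TGF-beta, BMP and ID list had 15 leading genes out of 29 measured. At 1.5-fold 2 of these were lower and 0 higher, beside 3.11% and 7.34% of all leading genes. Of the 15, 13 lay below 0, where 57.6% of all leading genes did, and the median log2 ratio was -0.26. With equal panel sums, or after correction for level, 12 lay below 0. ACVR1, a BMP type I receptor, was an exception at 0.42. ID2 missed the error limit narrowly, at 4.24 times its largest SE on the log2 scale.

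JAG1 was the Notch gene that differed, with a mean of 651 with tetrac and 332 with both compounds, 1.96-fold lower (log2 ratio -0.97, SE at most 0.27). The receptor NOTCH1 and the DNA-binding partner RBPJ had log2 ratios of 0.20 and 0.09. EPHA2, an ephrin receptor, went from the authors' mean of 318 to 559, 1.76-fold higher, with an SE of at most 0.30. With heteronemin alone its mean was 384 and in control 385, so the tetrac mean lay below that of control. Against control, the authors' deposited table gives both compounds a 1.45-fold higher level, with a p-value of 0.09. EPHA1, a relative, had a log2 ratio of -0.44. Of the 5 leading guidance genes, EPHA2 and NRP1 were 1.5-fold or more higher and 0 were lower. The shares over all leading genes were 7.34% higher and 3.11% lower.

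SCNN1A, a subunit of the epithelial sodium channel, was the 1 lower gene to pass the error limit. Its mean was 800.0 with tetrac and 433 with both compounds, 1.85-fold lower (log2 ratio -0.89, SE at most 0.15), against 653 in control and 374 with heteronemin. Tetrac alone was the highest of the 4 groups. Of 11 leading genes of epithelial identity, SCNN1A was the only one 1.5-fold lower and 0 were higher, at a median of -0.06. The shares over all leading genes were 3.11% lower and 7.34% higher. ST14, the membrane protease matriptase, had a log2 ratio of -0.47, AP1M2, a sorting adaptor of epithelial cells, of -0.28 and ELF3, an epithelial transcription factor, of 0.34. None of 11 junction genes was 1.5-fold apart: TJP3 had -0.47, CLDN7 0.45, OCLN 0.36 and E-cadherin, CDH1, -0.01. SNAI1, a repressor of E-cadherin transcription, went from the authors' mean of 124 to 349, 2.80-fold higher (log2 ratio 1.49, SE at most 0.36). It passed the error limit on the linear scale and missed it on the log2 scale, at 4.18. CDH1, its known target, had means of 475 and 471. VIM, the mesenchymal intermediate filament, was at the floor with tetrac and at 41.8 with both. Without tetrac its means were 39.0 in control and 35.4 with heteronemin, so every group lay near the floor. Of 19 measured mesenchymal genes and regulators of that state, only SNAI1 and DPYSL3 reached the leading level. DPYSL3 went the other way from SNAI1, from 274 with tetrac to 218 with both (log2 ratio -0.33).

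The cytoskeletal genes that differed most were GSN and CAV1. GSN, the actin-severing gelsolin, was 1.75-fold lower with both, at 300.2 against 525 for tetrac (log2 ratio -0.81, SE at most 0.21). CAV1, the coat protein of caveolae, went from 882 to 549, 1.61-fold lower (SE at most 0.33). Of the 8 leading members these 2 were 1.5-fold lower and 0 higher, where 3.11% of all leading genes were lower. The list's median was -0.15 against -0.04, and 7 of the 8 lay below 0 against 57.6%. That count was 5 with equal panel sums and 4 after correction for level, so the list as a whole had no direction that held across scalings. The kinases ROCK1 and ROCK2, which act on myosin, had log2 ratios of -0.18 and -0.41.

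Of 8 leading cell cycle genes, RGCC alone was 1.5-fold lower and 0 higher, where 3.11% and 7.34% of all leading genes were. The log2 ratio was below 0 for 8 of them, where it was for 57.6% of all leading genes, and for 7 with equal housekeeping means, with equal panel sums or after correction for level, where CDKN1A turned above 0. RGCC, a regulator of the cell cycle induced by complement, went from 240.1 with tetrac to 127 with both, 1.89-fold lower (log2 ratio -0.92, SE at most 0.19), and passed the error limit on the log2 scale but missed it on the linear scale. PTTG1, which encodes securin, had a log2 ratio of -0.55 (SE at most 0.14) and RBL1, a relative of the retinoblastoma protein, of -0.46. CDKN1A, the inhibitor p21, had means of 1285 and 1284. The list's median log2 ratio was -0.32.

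The study's title concerns signalling through the EGF receptor, and none of the leading genes listed for it was 1.5-fold apart here. Of 18 such genes measured, 15 were at the leading level, with a median log2 ratio of -0.05. Over all leading genes, 7.34% were 1.5-fold or more higher and 3.11% lower. EGFR had means of 462 with tetrac and 404 with both (log2 ratio -0.20, SE at most 0.12). MAPK3, the kinase ERK1, went from 476 to 343 (log2 ratio -0.47, SE at most 0.17). ERBB2 had a log2 ratio of -0.43, with an SE of at most 0.26, and ERBB3, below the leading level, of -0.32. The kinase MAP2K1 and the receptor ligand AREG had 0.32 each. Of 10 leading genes of PI3K, AKT and mTOR, 0 were 1.5-fold apart. In this list 9 lay below 0, where 57.6% of all leading genes did, and 8 did with equal housekeeping means, with equal panel sums and after correction for level. The largest ratios were those of PIK3R2 (-0.32), AKT1 (-0.28), PIK3R1 (-0.25) and EIF4EBP1, the translation repressor (0.39). In the WNT list CTNNB1, beta-catenin, had -0.39 and MYC 0.35, and none of 4 leading genes was 1.5-fold apart. The panel counts transcripts, so receptor activity was not measured.

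**Figure D2:**
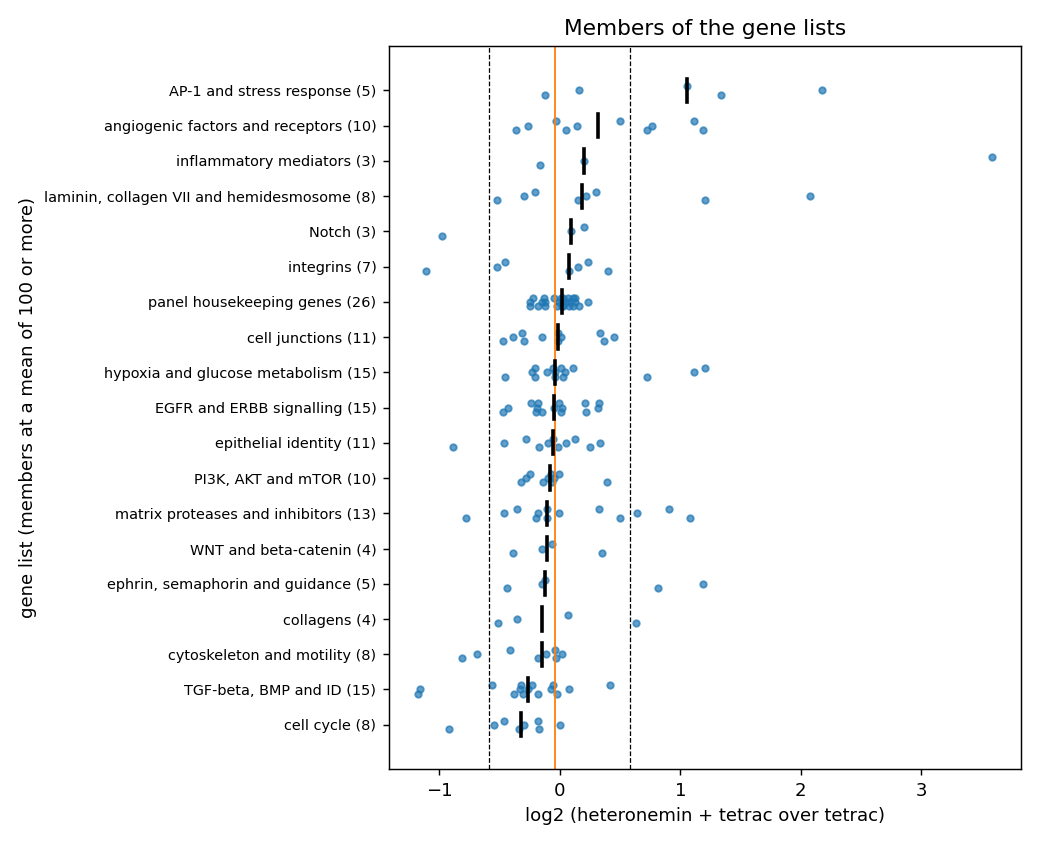
The log2 ratio of both compounds over tetrac (horizontal axis) for members of the gene lists with a mean of 100 or more, for lists with at least 3 such members. Points are genes, black bars list medians, the orange line the median of all 354 leading genes (-0.04) and dashed lines mark 1.5-fold. The AP-1 and stress response list has the highest median, 1.06, and the cell cycle list the lowest, -0.32.

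Several of the 37 genes belonged to no list. CLU, the secreted chaperone clusterin, went from the authors' mean of 997 to 2352, 2.36-fold higher (log2 ratio 1.24, SE at most 0.28), and passed the error limit. POPDC3, a membrane protein of the Popeye family, went from 120.3 to 307, 2.55-fold (SE at most 0.34). PTPRM, a receptor tyrosine phosphatase found at cell contacts, was 1.78-fold higher (SE at most 0.19) and MISP, an actin-bundling protein of the mitotic spindle, 1.69-fold (SE at most 0.16). Both of the last passed the error limit. The antiproliferative gene BTG1 was 1.70-fold higher, the nicotinic receptor subunit CHRNA7 1.71-fold, adrenomedullin 2, ADM2, 1.72-fold and tissue factor, F3, 1.505-fold. JCAD, listed in the files as KIAA1462, a junction protein of endothelium, was 1.55-fold lower, as was FBLN1, the matrix protein fibulin-1. Of the genes with ratios just short of 1.5-fold lower, PRF1, CDK14 and VCAN had log2 ratios of -0.58, -0.58 and -0.57. On the higher side SDC4 came about as close, from 455 with tetrac to 675 with both.

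The panel as a whole describes how the columns compare. The sum of the authors' means was 306898 for tetrac and 297671 for the combination, and the geometric mean of the 30 housekeeping genes was 299.5 and 297.5. Of the 26 leading housekeeping genes, 0 were 1.5-fold apart, beside 7.34% higher and 3.11% lower among all leading genes. The log2 ratios of the 26 ranged from -0.25 to 0.23, with a median of 0.02. The geometric mean of the 30 was also 299.6 in control and 296.1 with heteronemin, where the panel sums were 333810 and 280484. If the authors' biological normalization used the housekeeping genes, it set their closeness, which is then no check of the columns. Of 8 measured markers of colonic epithelium, EPCAM, CDH1, KRT19, CLDN7 and ESRP1 were at 100 or more in both groups. KRT7, CEACAM5 and CEACAM6 were lower, at 41.7, 44.7 and 61.0 with tetrac and 60.5, 42.1 and 70.1 with both. The sum over the list was 6132 with tetrac and 6837 with both. With both compounds KRT19, CLDN7, ESRP1, KRT7 and CEACAM6 stood higher than with tetrac, and EPCAM, CDH1 and CEACAM5 lower. Of 13 measured markers of blood, endothelial and stromal cells, none reached 100 in either group. Their sums were 86.0 and 91.5 for 2 blood genes, 245 and 275 for 6 endothelial genes, and 204.6 and 215 for 5 stromal genes, in the same order, and TEK was at the floor in both groups.

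Of the 416 genes under a mean of 100, 57 were at the floor in both groups, 33 only with both compounds and 4 only with tetrac. Of the other 359, 11 were 1.5-fold or more higher (3.06%) and 2 lower (0.557%). The highest were SPP1, the secreted phosphoprotein osteopontin, from 44.9 to 137 (log2 ratio 1.61, SE at most 0.61), and the hexokinase family member HKDC1, from 43.5 to 109 (1.32, SE at most 0.54). MYCL, a MYC family factor, had a log2 ratio of 1.12, and TNFRSF12A, the receptor of the cytokine TWEAK, of 0.98. The latter, with an SE of at most 0.22, passed the error limit. The lowest were CRIP2, from the authors' mean of 84.7 to 52.6 (log2 ratio -0.69), and the BMP receptor BMPR2, from 56.6 to 37.1 (-0.61). SCG2, HOXB13 and SERPING1 followed at -0.58, -0.54 and -0.53. Levels this low often rested on few samples. Control was at the floor, and tetrac and the combination above it, for 193 genes, of which 144 had a p-value of 0.42 in both of the authors' deposited tables. No leading gene had control at the floor, the lowest control mean among them being 42.8, for NRP1. This pattern of p-values therefore cannot tell on how many samples the leading levels rested.

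**Figure D3:**
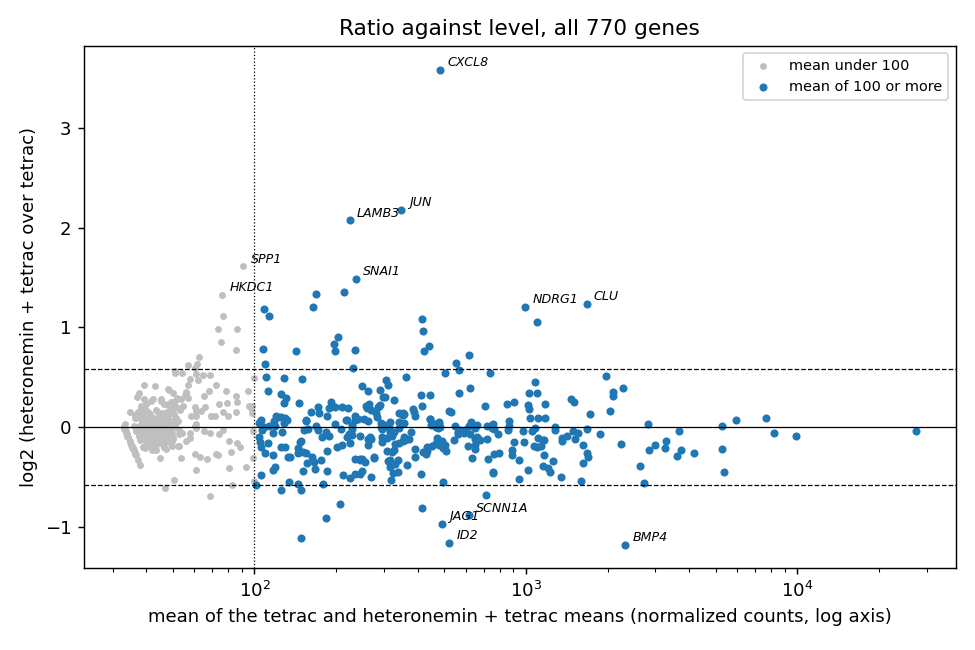
The log2 ratio of both compounds over tetrac (vertical axis) against the mean of both columns in normalized counts (log axis) for all 770 genes, each point 1 gene. Dashed lines mark 1.5-fold and the dotted line a mean of 100, below which most genes lie close to the floor of 33; the cloud stays centred near 0 across the range of levels.

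The ratio of both compounds over tetrac was then set beside that of heteronemin over control, which has no samples in common with it. Both share the panel and the authors' normalization. Over the 356 genes with a mean of 100 or more across the 4 groups, Pearson's r was 0.798 and Spearman's rho 0.677, given as a description across genes, which are not independent replicates. The sign agreed for 255 genes (71.6%). At 1.5-fold, 24 genes were higher with tetrac present (6.74%) and 22 without it (6.18%). The 15 shared genes were 62.5% of the former and 68.2% of the latter. For lower genes the counts were 11 (3.09%) and 29 (8.15%), and the 9 shared genes were 81.8% and 31.0% of them. No gene was 1.5-fold higher in the one and 1.5-fold lower in the other.

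**Figure D4:**
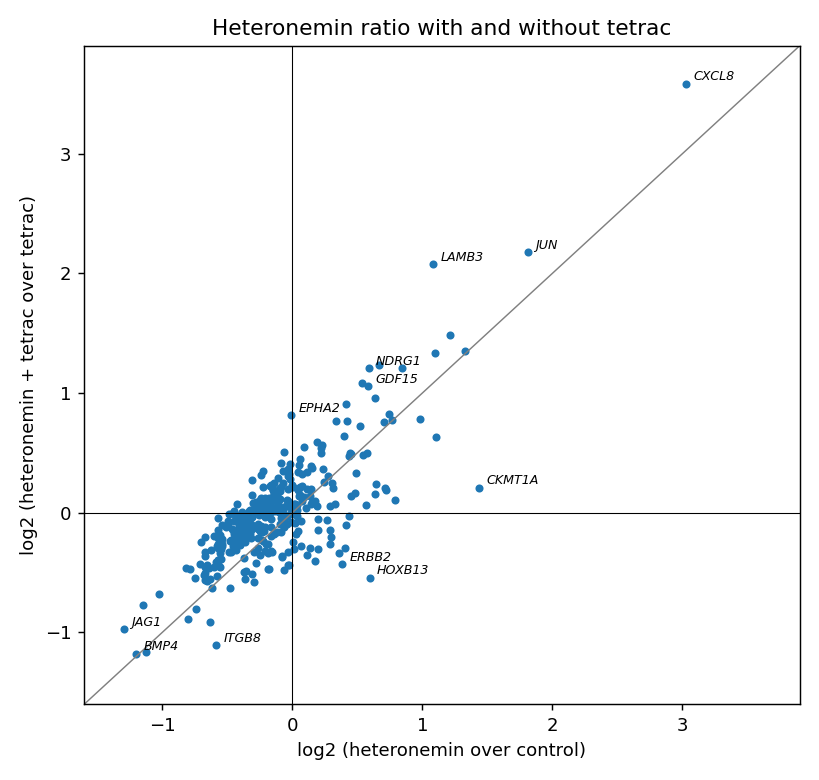
The log2 ratio of both compounds over tetrac (vertical axis) against that of heteronemin over control (horizontal axis) for the 356 genes with a mean of 100 or more over the 4 groups; each point is 1 gene and the diagonal marks equal ratios. CXCL8, JUN and LAMB3 lie above the diagonal, and CKMT1A, HOXB13 and ERBB2 below it.

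The smaller number of lower genes went with a shift that depended on level. Among genes with a mean of 1000 or more over the 4 groups, the median log2 ratio was -0.09 with tetrac present and -0.40 without it. Among those from 50 to under 100, it was 0.11 and 1.08. Between 300 and 1000 it was -0.05 and -0.27, and from 100 to under 300 it was -0.002 and -0.03. The comparison within tetrac-treated cells thus had a far smaller drift with level than the comparison with control, where 279 genes were at the floor, against 61 with tetrac, 90 with both and 70 with heteronemin. Its part in the counts of lower genes was not tested.

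Single genes differed between the 2 settings, some by more than their largest SE but none by more than 4.303 times it. The largest positive differences were those of LAMB3 (log2 ratio 2.08 with tetrac present and 1.08 without, a difference of 0.99 with an SE of at most 0.51), EPHA2 (0.81 and -0.01, a difference of 0.82 with an SE of at most 0.35) and NDRG1 (1.21 and 0.59, a difference of 0.62 with an SE of at most 0.36). SLC35A3 and the endoplasmic reticulum chaperone HSP90B1 followed, each at 0.58. The largest negative differences were those of CKMT1A (0.21 and 1.43), which has a near-identical copy in CKMT1B and is uncertain for that reason, HOXB13 (-0.54 and 0.60), ERBB2 (-0.43 and 0.38), CLDN3 (-0.30 and 0.40) and CXADR (-0.33 and 0.36). Of the 356 genes, 0 had a difference over 4.303 times its largest SE, and the highest multiple was 2.97, for OCLN. For CXCL8 the ratio was 3.58 with tetrac present and 3.03 without. A gene past 1.5-fold in only one setting, such as VEGFA, GDF15, CTSL, ADAM17, FGF2, BTG1, F3 and EPHA2 with tetrac or PTTG1, MAPK3, LDHA and ID1 without it, is therefore not shown to differ between them.

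Genes chosen by their ratio in one setting were also read in the other, as a description. The 24 genes higher with tetrac had a median log2 ratio of 0.93 there and of 0.69 without tetrac. The 22 genes higher without tetrac had a median of 0.78 there and of 0.80 with tetrac. The 11 genes lower with tetrac had medians of -0.89 and -0.80 in the same order, and the 29 lower without tetrac had -0.67 without and -0.50 with it.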

How the data were processed

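RNA of the 12 samples was counted with nCounter. Per the labels' protocols, TRIzol was used to extract RNA for the PanCancer Progression panel. The authors ran technical and biological normalization in nSolver 4.0, the former with positive controls, per the design text. Each deposited table gives a normalized signal (the group mean) for a treatment and for control, a signed fold change that the authors deposited as a score, and the authors' p-value, printed to 2 decimals. No source used here states the kind of mean or the test behind the p-values, and raw depth is unknown.

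From these, log2 ratios of the combination over tetrac were computed, with no pseudocount, and genes were counted at 1.5-fold. The largest possible standard error was computed from the p-values of both groups against control, after the data were seen. It assumes a comparison with unpooled variances of 3 samples a group, on the log2 and, separately, the linear scale. The calculation was run on simulated log2 values whose p-values came from that same comparison. That run could not check the assumed comparison, the kind of mean, the floor or the linear scale. The named genes are the 15 highest and 15 lowest ratios, up to 4 per list, 17 fixed genes, the 5 largest differences each way between settings and the 5 highest and lowest below a mean of 100. Of 101 named genes a few are not reported here. Other genes, such as markers and those near a threshold, were named after their values were seen. Members and lists (303 of 498 listed genes measured) were chosen with earlier results of these data known. Symbols are those of the files, 755 of 770 current in RefSeq and 15 matched by accession. Python 3.11.15 was used with pandas 2.3.3, scipy 1.17.1, numpy 2.4.6 and, for plots, matplotlib 3.10.9.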

Additional observations from a re-analysis of the deposited data

How the results depend on the processing

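The files hold group means, so no sample could be left out. No paired analysis was possible because the columns are group means that carry no replicate numbers. The 26 higher and 11 lower genes became 40 and 45 at a fold of 1.3, 13 and 3 at a fold of 2, and 11 and 6 among genes with a mean of 300 or more. Only 8 and 1 of them passed the error limit, a setting chosen after seeing the data. With a pseudocount of 10, equal housekeeping means, equal panel sums, level correction (subtracting a running median over 51 genes ordered by level), the deposited fold changes, all genes above the floor or a tetrac mean of 100 or more, counts stayed within 1.5 times, from 18 to 37 higher and 10 to 13 lower. The median log2 ratio lay between -0.06 and 0.00. Pearson's r between settings was 0.493 over all genes above the floor and 0.920 at a mean of 300 or more, and 0.849 after level correction. No named gene 1.5-fold apart changed sign. Named genes near 0 did: CDKN1A, HIF1A and CDH1 turned above 0 with equal panel sums, CDKN1A, HIF1A and CD44 after level correction, and CDKN1A with equal housekeeping means. The ratio of COL1A1 fell under 1.5-fold with a pseudocount of 10 (0.58), as did that of KIAA1462 (-0.58), and FBLN1 did after level correction (-0.58). BMPR2, under a mean of 100, did so in 3 settings, and CDK14, HOXB13 and SCG2 passed 1.5-fold after level correction.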
